A study of Mus musculus with 6 samples.

Results

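The AMPA receptor subunit genes Gria1, Gria2, Gria3 and Gria4 were followed in the hippocampus of mice that lack the kinase RSK2. Every non-control probe set that the platform annotation assigns to 1 gene symbol was taken if that symbol was 1 of these 4. This gave 4 of 12393 genes and 6 of 22626 non-control probe sets, with 2 each for Gria1 and Gria2 and 1 each for Gria3 and Gria4. RNA came from male mice aged 2 months on a C57BL/6J background, from Rsk2-KO animals on 3 arrays and from their wild-type (WT) littermates on 3 arrays. Each array held a pool of 2 hippocampi, and the labels do not say whether pools shared animals, so p-values measure only the spread between these pools. The comparison asks whether the transcripts of the receptor differ between the genotypes.

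AMPA receptors are glutamate-gated channels built from 4 subunits, and they carry most of the fast excitatory transmission in the hippocampus. Most receptors of pyramidal cells pair GluA2, the product of Gria2, with GluA1 or GluA3, the products of Gria1 and Gria3. The GluA2 subunit, whose transcript is edited at the pore by the adenosine deaminase ADARB1, makes a receptor almost impermeable to calcium. GluA4, the product of Gria4, is known mainly from interneurons and from early development in pyramidal cells. RSK2, encoded by Rps6ka3, is a kinase downstream of ERK that phosphorylates the transcription factor CREB.

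The start regions of Gria2 and Gria4 are printed here because only these 2 of the member genes had one in the sources used here. The 2 member probe sets whose signals did not overlap between the genotypes belong to these genes. Where those probe sets lie along the genes was not known here. Both start regions come from RefSeq on GRCm38.p6, read 5′ to 3′ on the minus strand. They run from 150 bases before the annotated start to 25 after it (chr3:80802811-80802985 for Gria2 and chr9:4796210-4796384 for Gria4). Gria1 and Gria3 had no start region in these sources and are named only.
Gria2: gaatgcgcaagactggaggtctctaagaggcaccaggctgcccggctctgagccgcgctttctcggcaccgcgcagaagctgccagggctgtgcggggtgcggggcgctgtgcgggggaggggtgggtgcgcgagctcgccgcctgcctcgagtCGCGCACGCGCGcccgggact
Gria4: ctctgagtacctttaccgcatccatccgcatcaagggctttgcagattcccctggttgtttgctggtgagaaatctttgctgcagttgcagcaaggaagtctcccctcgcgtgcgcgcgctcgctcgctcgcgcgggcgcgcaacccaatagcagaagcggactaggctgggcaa
Capitals mark the only match found to any of 4 motifs, which were chosen with the sequences in view and searched on both strands from 250 bases before to 50 after the start. The consensus site of NRF1, a regulator of respiratory and some synaptic genes, occurred in Gria2 at bases 5 to 16 after the start, and in 1.27% of 32851 such windows. It overlapped no other match. The GC box GGGCGG, bound by Sp1, had no match in either gene and matched in 35.7% of the windows. The core of the cAMP response element, TGACG, which CREB binds, and TATAAA also had no match in either, against 20.8% and 13.6% of the windows. GC content over the window was 65.7% for Gria2 and 59.7% for Gria4, and the median of all windows was 52.7%.

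The values are MAS5 signals, a linear brightness per probe set scaled to the same trimmed mean on every array (100.034 to 100.037). One array of each genotype, those numbered 3 in the titles, differed from the rest. On the first principal component, with 44.9% of the variance, they lay at 31.2 and 36.3, against −23.8 to −6.58 for the other 4. Their 3′ to 5′ ratios for Actb, a sign of RNA quality, were 2.24 and 2.22, against 1.5 to 1.63 elsewhere, and those for pyruvate carboxylase 4.48 and 3.73, against 1.88 to 2.45. For the transferrin receptor they were lower, at 2.09 and 1.86 against 2.69 to 3.51, and for Gapdh 0.774 and 0.823 against 0.719 to 0.783. The differences below are therefore also given within the arrays numbered 1 and 2 (the within value) and between those numbered 3 (the between value). The transcript of the targeted gene did not have a lower mean in the knockout pools. Rps6ka3 had a signal of 94.8 ± 6.81 on the Rsk2-KO arrays and 74.4 ± 14.8 on the WT arrays at its brightest probe set (mean and SD of 3 arrays each). The log2 difference was 0.37, with a within value of 0.57 and a between value of −0.04. Its other kept probe set had a log2 difference of 0.54 (within 0.73, between 0.17). That probe set was dim, with WT signals of 13.0, 16.2 and 31.9 beside the filter at 19.2. It was kept through the group where it is high. Where these probe sets lie with respect to the disruption is not known here, so this is no check of the labels, and genotypes below are those of the labels.

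No AMPA subunit probe set passed the test at an adjusted p of 0.05. In limma, 0 of the 6 were called, and 0 of all 13576 kept probe sets (0%), with 937 of these (6.9%), and 1 of the 6, at an unadjusted p under 0.05. All 6 members passed the filter on dim signals, which lay at a signal of 19.2. The log2 difference, Rsk2-KO minus WT, was above 0 for 5 members and below 0 for 1, and 47.5% of all kept probe sets were above 0. The median of the members was 0.438, beside −0.0161 over all kept probe sets. The members were chosen with earlier results of these data known, and the 6 are not independent of each other. Their contrast with all probe sets is thus a description and no test. Every Rsk2-KO array lay above every WT array for 2 members, 1453098_at of Gria2 and 1421351_at of Gria4, and for 5.9% of all kept probe sets. No member lay wholly below, against 7.96% of all. In tissue RNA, fewer cells of a type and less RNA per cell cannot be told apart.

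**Figure D1:**
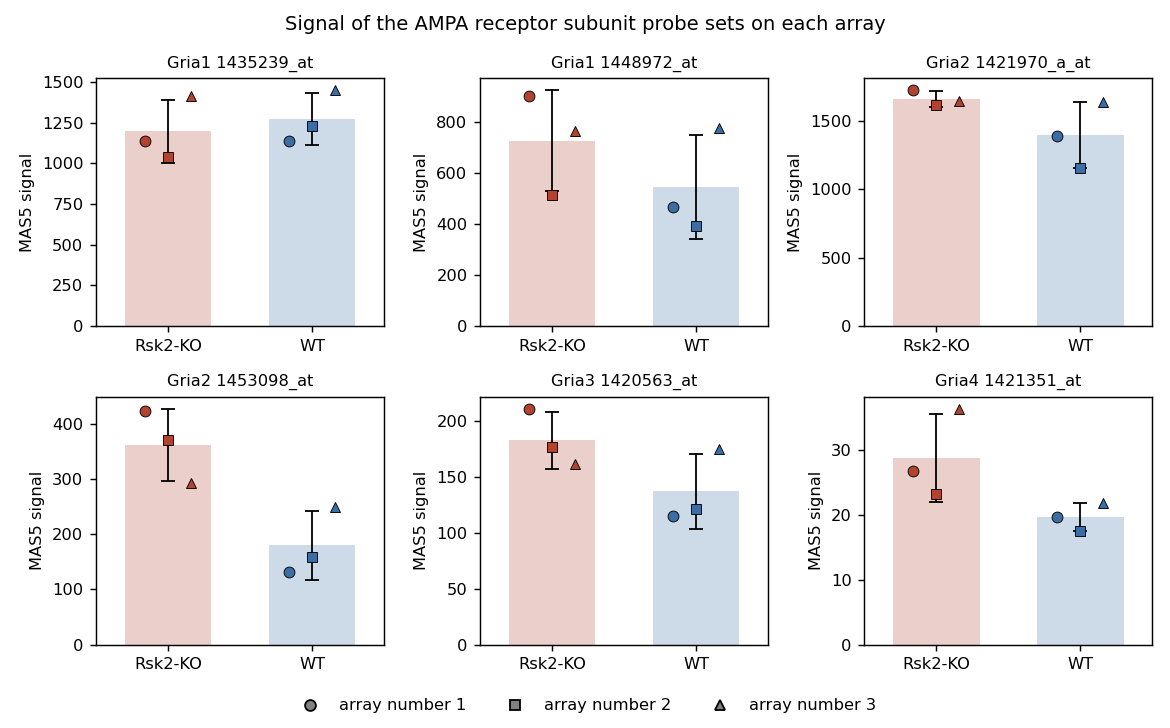
Signal of each AMPA subunit probe set (linear MAS5 units, axis from 0) on the 3 Rsk2-KO and 3 WT arrays; bars and error bars are the mean and SD, and the marker shape gives the array number. The groups separate only for 1453098_at of Gria2, with 294 to 423 against 132 to 250, and for 1421351_at of Gria4, with 23.1 to 36.3 against 17.5 to 21.8.

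Gria2 had the largest difference of the 6, and it came from the dimmer of its probe sets. For 1453098_at the signals of Rsk2-KO 1, 2 and 3 were 423, 371 and 294, and those of WT 1, 2 and 3 were 132, 158 and 250. The knockout arrays were thus all above the WT arrays, and the nearest pair were the arrays numbered 3. This gave 363 ± 65.3 against 180 ± 62.2 (mean and SD of 3 arrays), or 2.07-fold, with a 95% interval of 1.41 to 3.03. On the log2 scale the difference was 1.05 (SE 0.24). Its unadjusted p of 0.00206 ranked 15 among 13576 probe sets, and the adjusted p was 0.661. Within the arrays numbered 1 and 2 alone the log2 difference was 1.46 and it passed in limma (adjusted p = 0.0328), as did 1.44% of all kept probe sets. Of these 196 probe sets, 176 were higher in Rsk2-KO. Between the arrays numbered 3 the log2 difference of 1453098_at was 0.23.

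The brighter Gria2 probe set, 1421970_a_at, gave 1723, 1613 and 1642 on the knockout arrays and 1388, 1155 and 1636 on the WT arrays. The knockout values lay close together, whereas WT 3 reached the level of the knockout arrays and WT 2 was the lowest. The log2 difference was 0.27 (SE 0.15, 95% interval −0.07 to 0.61, adjusted p = 0.665), a fold of 1.2 whose interval ran from 0.95 to 1.52. It was 0.40 within the arrays numbered 1 and 2, 0.0050 between those numbered 3, and 0.14 without WT 2. Both Gria2 probe sets thus had a higher mean on the knockout arrays, by amounts whose contrast is given with the ratios.

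Gria1, whose subunit is inserted into synapses during long-term potentiation, had probe sets that differed in sign. At the brighter, 1435239_at, the knockout arrays gave 1136, 1040 and 1415 and the WT arrays 1138, 1233 and 1450. On this probe set the arrays numbered 3 were the highest of each label and the groups overlapped. The log2 difference was −0.09 (SE 0.16, adjusted p = 0.869), with a 95% interval from −0.46 to 0.27, or a fold of 0.729 to 1.2. The within value was −0.12 and the between value −0.04. At 1448972_at the signals were 905, 514 and 768 against 467, 393 and 777. Here Rsk2-KO 1 was the highest array and Rsk2-KO 2 lay below WT 3. The log2 difference was 0.44 (SE 0.28, 95% interval −0.19 to 1.08, adjusted p = 0.686). Between the arrays numbered 3 it was −0.02, and within the other 4 it was 0.67. It depended on single arrays, at 0.24 without WT 2, 0.27 without Rsk2-KO 1 and 0.73 without WT 3. The 3 arrays with the highest signals here, Rsk2-KO 1, Rsk2-KO 3 and WT 3, were also those with the most signal from choroid plexus markers, a tissue next to the hippocampus. The summed signals of the 4 of these 5 markers on the array were 1638, 526 and 1521 on the knockout arrays and 708, 699 and 2143 on the WT arrays. The same 3 arrays were also the highest at 1421970_a_at of Gria2, with 1723, 1642 and 1636. Rsk2-KO 2, with the lowest choroid plexus sum, was close to them there, at 1613. At 1435239_at of Gria1 the order was another, with Rsk2-KO 1 (1136) below WT 2 (1233). Only Ttr of these markers passed the filter, and the part of this tissue in the Gria1 and Gria2 values was not tested.

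Gria3, an X-linked gene whose subunit pairs mainly with GluA2, gave signals of 211, 177 and 162 on the knockout arrays and 115, 121 and 176 on the WT arrays at 1420563_at. WT 1 and WT 2 lay below all knockout arrays, and WT 3 lay within their range. The log2 difference was 0.43 (SE 0.20, 95% interval −0.01 to 0.88, adjusted p = 0.661), or 1.35-fold. Within the arrays numbered 1 and 2 it was 0.71, and between those numbered 3 it was −0.12.

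Gria4 was dim at its only probe set, 1421351_at, at percentile 43.2 of mean signal among non-control probe sets, just above the filter at percentile 40. The knockout arrays gave 26.7, 23.1 and 36.3 and the WT arrays 19.7, 17.5 and 21.8. All knockout arrays were above all WT arrays, with Rsk2-KO 3 the highest. The WT signals, 19.6 ± 2.14 (mean and SD of 3 arrays), lay at the filter signal of 19.2, and WT 2 lay below it. The log2 difference was 0.53 (SE 0.27, 95% interval −0.08 to 1.14, adjusted p = 0.661), or 1.44-fold. It was 0.74 between the arrays numbered 3 and 0.42 within the others, and 0.35 without Rsk2-KO 3. With 64 added to each signal before the logarithm it was 0.15.

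**Figure D2:**
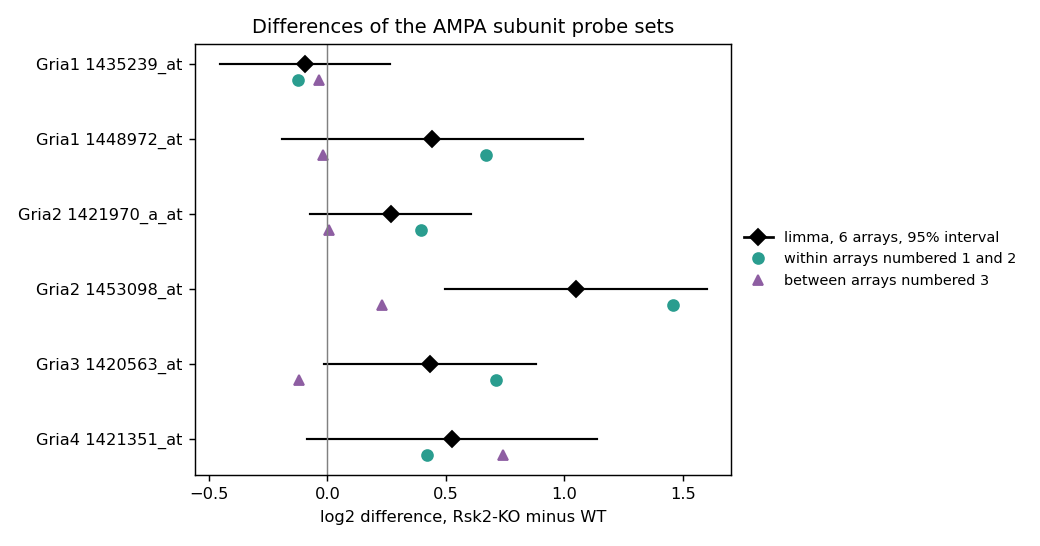
Log2 difference (Rsk2-KO minus WT) of each AMPA subunit probe set: diamonds and lines are the limma estimate and its 95% interval over 6 arrays, circles the difference within the arrays numbered 1 and 2, and triangles that between the arrays numbered 3. Triangles lie within 0.23 of 0 for every probe set except that of Gria4, at 0.74.

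For all member probe sets but that of Gria4, the difference was larger in size within the arrays numbered 1 and 2 than between those numbered 3. Within the former, 5 of the 6 were above 0 and the median was 0.547, beside −0.021 over all kept probe sets. Between the arrays numbered 3, 3 of the 6 were above 0 and the median was −0.0061, beside −0.0080 over all. Without these 2 arrays, 5 members and 27.5% of all kept probe sets had every knockout array above every WT array. The part of RNA quality in this contrast between the arrays was not tested.

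Because subunits assemble together, the balance between their transcripts was compared as the log2 ratio of 2 probe sets within each array, centred on its mean over the 6 arrays. Of 8 ratios examined, 2 did not overlap between the genotypes. The numerators of both, Gria4 1421351_at and Gria2 1453098_at, did not overlap on their own, so these ratios are no separate support. The share of such ratios among other pairs of probe sets was not computed. Ratios between the 2 probe sets of Gria1 or of Gria2 compare the same gene, not subunits. The ratio of Gria4 to Gria1 at their brightest probe sets was 0.30, 0.22 and 0.42 on the knockout arrays and −0.15, −0.44 and −0.35 on the WT arrays, a difference of 0.62 (within 0.55, between 0.78). The other was the ratio of the dimmer to the brighter Gria2 probe set, at 0.58, 0.48 and 0.12 against −0.79, −0.27 and −0.11, a difference of 0.78 (within 1.06, between 0.22). For each the exact two-sided permutation p was 0.1, the smallest that 3 arrays against 3 allow, and 0.267 after Benjamini-Hochberg adjustment over the 8. At this size of design no ratio could pass an adjusted p of 0.05 over the 8. Gria4 over Gria1 rests on the dim Gria4 probe set, at 0.53, and on 1435239_at of Gria1, at −0.09. The other Gria1 probe set, 1448972_at, was at 0.44, close to Gria4, so the separation depends on the Gria1 probe set taken. The ratio of Gria4 to 1448972_at was not among the 8.

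The ratio of Gria2 to Gria1, which bears on the share of receptors that pass calcium, was 0.30, 0.33 and −0.09 on the knockout arrays and −0.02, −0.40 and −0.13 on the WT arrays. Rsk2-KO 3 lay below WT 1, so the groups overlapped. The difference was 0.36 (exact two-sided permutation p = 0.2, adjusted 0.267), with a within value of 0.52 and a between value of 0.04. Its sign depends on the Gria1 probe set taken. At 1448972_at Gria1 was at 0.44, above the 0.27 of Gria2, so with that probe set the ratio is lower in Rsk2-KO. The 5 other ratios overlapped as well, with exact p from 0.2 to 0.8. Of these, 3 had opposite signs within the arrays numbered 1 and 2 and between those numbered 3, namely Gria3 over Gria2 (0.31 and −0.13), Gria3 over Gria1 (0.84 and −0.08) and Gria4 over Gria3 (−0.29 and 0.86).

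**Figure D3:**
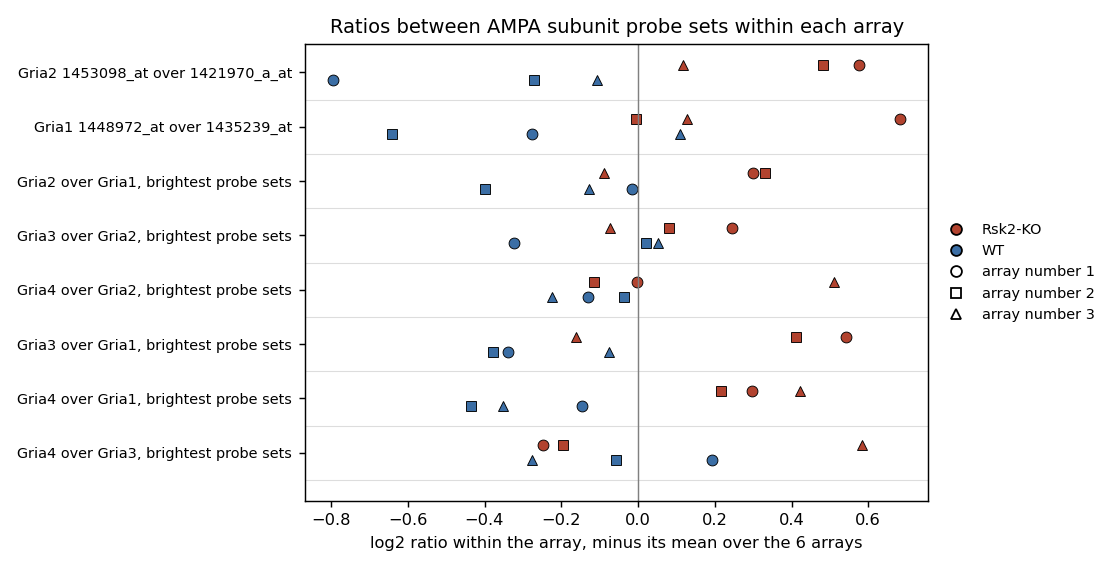
Log2 ratio between AMPA subunit probe sets within each array, centred on its mean over the 6 arrays, with Rsk2-KO arrays in red, WT arrays in blue and marker shapes for the array number. The genotypes separate for the Gria2 probe set pair and for Gria4 over Gria1, and overlap for the other 6 ratios.

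Over the 6 arrays, the dimmer Gria2 probe set and the Gria3 probe set followed each other most closely, with a Pearson correlation of log2 signal of 0.958 (Spearman 0.943). The brighter Gria2 probe set and 1448972_at of Gria1 had 0.869, whereas 1435239_at of Gria1 had 0.401 with the other Gria1 probe set and between −0.121 and 0.316 with those of the other genes. These correlations describe 6 arrays that share the genotype and the array number as sources of variation. Among all kept probe sets with 1 symbol, those most like each gene's brightest probe set were then listed. For Gria3 these were Camk2a, the alpha subunit of the synaptic kinase CaMKII, at 0.994, Hdgfl3 at 0.994 and Zfp62 at 0.993. For Gria4 they were Mboat2 at 0.996, Ift81 at 0.988 and Cacng2, which encodes the AMPA receptor auxiliary subunit stargazin, at 0.981. For Gria2 they were Esf1, Rnf6 and Selenot, from 0.997 to 0.999, and for Gria1 Hsd3b7, Samd4b and Abcf1, from 0.992 to 0.998. These are the highest values of a search over all such probe sets on 6 arrays. Values this high follow from that selection and do not show shared regulation.

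The proteins that assemble, traffic and anchor AMPA receptors gave no called probe set in either direction. Of 19 auxiliary and assembly genes, 12 were on the array and 10 were kept, with 13 probe sets, of which 0 passed. Of these, 3 were above 0 and 10 below, with a median log2 difference of −0.10 beside the −0.0161 of all kept probe sets. Cacng8, which encodes the hippocampal auxiliary subunit TARP gamma-8, had 43.5, 45.6 and 57.2 against 21.2, 29.8 and 29.5, a log2 difference of 0.87 (SE 0.23, adjusted p = 0.661). Cacng2 had 105, 94.7 and 139 against 70.3, 64.1 and 89.2, a difference of 0.60 (SE 0.20, adjusted p = 0.661). Neither overlapped between genotypes. Their differences were 0.96 and 0.64 between the arrays numbered 3, and 0.83 and 0.57 within the other arrays. Cacng3, another auxiliary subunit, lay lower on every knockout array, at −0.34 (within −0.44, between −0.13). Cnih2, the cornichon that aids export of the receptor, was at −0.28 with overlap (within −0.42, between 0.0026).

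Among 26 trafficking and anchoring genes, 22 were kept with 38 probe sets, of which 23 were above 0, 15 below and 0 called; the median was 0.08. Dlg4, which encodes the scaffold PSD-95, had 283, 284 and 286 against 196, 203 and 249, a log2 difference of 0.40 (SE 0.14, adjusted p = 0.661; within 0.51, between 0.20). The knockout arrays were nearly equal and all above the WT arrays, and its 2 other kept probe sets were at 0.04 and 0.37. Grip1, a PDZ protein that binds GluA2, was at 0.82 without overlap (within 1.03, between 0.40). Its WT signals of 19.1 ± 5.40 (SD, n = 3) lay at the filter, so it was kept through the group where it is high, and its other kept probe set was at 0.54 with overlap. Myo6, the motor myosin VI, was at 0.42 without overlap (within 0.33, between 0.58), and its 2 other kept probe sets were at 0.19 and 0.82 with overlap. Nsg1, an endosomal protein of neurons, was at −0.71 with overlap (within −0.72, between −0.69). Its knockout signals, at most 22.2, lay near the filter, and its other kept probe set was at −0.20.

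Among 14 other ionotropic glutamate receptor genes, 10 were on the array and 5 were kept, with 1 probe set each, of which 2 were above 0, 3 below and 0 called, with a median of −0.25. Grik2 and Grik5, of the kainate receptor family, had every knockout array below every WT array, at −0.42 (SE 0.17) and −0.25 (SE 0.13), with within values of −0.35 and −0.27 and between values of −0.55 and −0.23. Grin2b, an NMDA receptor subunit, was at −0.38 with overlap (within −0.12, between −0.90). Grid1, a delta receptor, was at 0.18 with overlap, and its sign turned, from −0.24 within to 1.04 between. Of the 9 genes fixed as Gria2 editing and promoter regulators, 8 were kept, with 14 probe sets, of which 7 were above 0, 7 below and 0 called (median −0.04). Adarb1, the editing enzyme of the GluA2 pore, gave 53.3, 38.2 and 79.6 against 82.7, 58.8 and 64.5, a log2 difference of −0.32 (SE 0.28, adjusted p = 0.736), with the groups overlapping. Its direction turned, from −0.63 within the arrays numbered 1 and 2 to 0.30 between those numbered 3, and its other kept probe set was at −0.11. Adar, the related deaminase, was at −0.29 (within −0.37, between −0.14). Rcor1, a corepressor that works with REST, was at 0.35 (within 0.36, between 0.34) and 0.20 (within 0.22, between 0.17) at the probe sets with the smallest p, and at 0.14 at its remaining one. REST itself was below the filter.

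**Figure D4:**
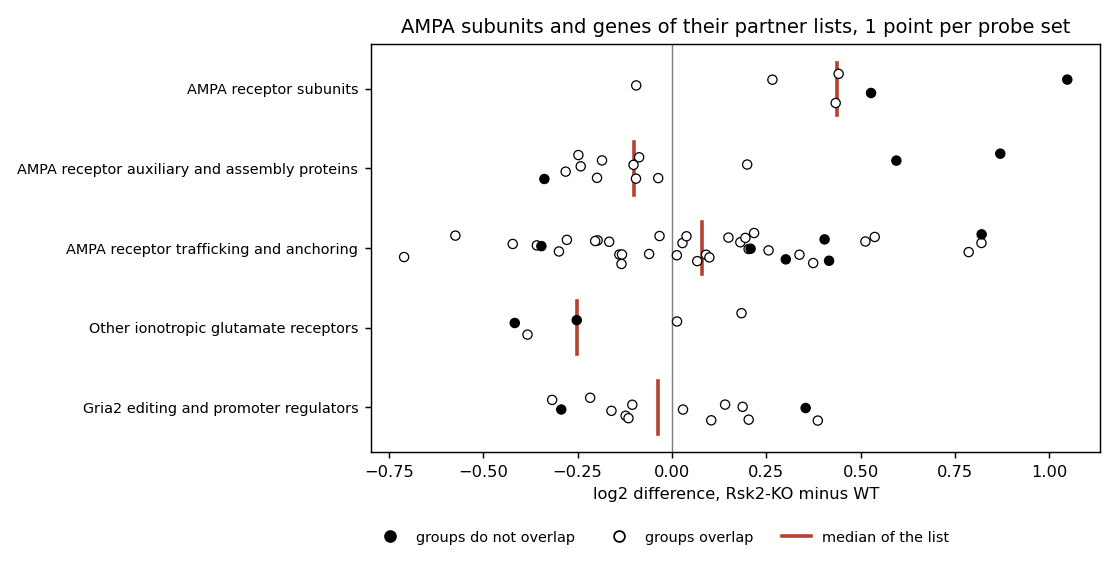
Log2 difference (Rsk2-KO minus WT) of every kept probe set of the AMPA subunits and of 4 lists of related genes, filled where the genotypes do not overlap; the red line is the median of each list. The subunits' median is 0.438, and the medians of the other lists run from −0.25 to 0.08. Subunits and lists were chosen with earlier results of these data known.

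Marker genes were read for the cells that make or surround these receptors. All 8 markers of hippocampal fields, among them Prox1 of the dentate gyrus and Wfs1 of CA1, were kept. Over 11 marker lists, 0 of 96 kept probe sets were called and no marker was listed at 0. Summed signals of excitatory neuron markers (4 of 6 measured) ran from 1190 to 1453 on the knockout arrays and from 1157 to 1290 on the WT arrays. Those of interneuron markers, all 8 measured, ran from 2307 to 2645 and from 2041 to 2475. Choroid plexus sums are given with Gria1, and their kept probe sets had a median difference of 0.42 within the arrays numbered 1 and 2 and −0.51 between those numbered 3. Microglial markers were the 1 list of 11 whose sums did not overlap, at 1350 to 1438 against 1533 to 1562. Of all kept single probe sets, 13.9% did not overlap in either direction, and no such share was computed for sums. The list medians of the log2 difference ran from −0.14 for microglia to 0.21 for interneurons. The part of cell makeup in the subunits' values was not tested.

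Gene size was read beside the differences. The 4 subunit genes are long, with spans of 319 kb for Gria1, 123 kb for Gria2, 278 kb for Gria3 and 378 kb for Gria4 in the RefSeq annotation. The 1274 other kept probe sets of genes at least as long as Gria2 had a median log2 difference of 0.09, beside −0.02 for all with a known span. Within the arrays numbered 1 and 2 their median was 0.15, and between those numbered 3 it was −0.03. Of these probe sets 7.61% had every knockout array above every WT array, beside 5.95% of all with a known span. The part of gene length in the subunits' values was not tested.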

How the data were processed

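Biotin-labelled cRNA from 6 µg of total RNA per pool was hybridised to 1 array each, per the labels' protocols. The deposited values are probe set intensity on a linear scale, made with MAS5 per the submitters' processing notes. Its version and settings were not given in the sources used here. Probe sets were named through the GEO platform annotation and current RefSeq symbols (GRCm38.p6). Log2 intensities were used as deposited; 64 control probe sets and those with a mean log2 signal under its 40th percentile were left out, which kept 13576. Groups and array numbers came from the titles. Genotypes were compared two-sided by limma 3.58.1 under R 4.3.3, using lmFit with genotype alone in the model and eBayes with a trend on intensity, and Benjamini-Hochberg adjustment over all kept probe sets, tested on simulated data. The number of arrays limits the precision, and the median SE of a log2 difference was 0.203. Scaling removes any difference in total RNA. MAS5 signals near background are noisy.

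Named were all member probe sets, Rps6ka3, up to 4 kept probe sets with the smallest p in each list of related genes, and the 3 probe sets with the pattern most like each gene's brightest. The members and lists were chosen with earlier results of these data known. Alternatives were other normalizations, offsets, filters, priors and weights, blocks for the array number or the arrays numbered 3, and arrays left out. Counts of members without overlap on fewer arrays were added after seeing the data. Same-numbered arrays were not treated as pairs, since the correlation of their deviations was 0.096 for number 1, although 0.461 for number 2 and 0.486 for number 3.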

Additional observations from a re-analysis of the deposited data

How the results depend on the processing

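The differences of the 2 Gria2 probe sets, 1448972_at of Gria1, Gria3 and Gria4 kept their direction under every alternative fit run here. Between the arrays numbered 3 alone, which is no fit, Gria3 (−0.12) and 1448972_at (−0.02) had the opposite sign. None of the members was called except 1453098_at within the arrays numbered 1 and 2 only (1.46, adjusted p = 0.0328 in limma). There, 1 AMPA subunit probe set and 196 of all probe sets were called, and 176 of these 196 were higher in Rsk2-KO. The log2 difference of 1453098_at ran from 0.82 to 1.46 (adjusted p from 0.0328 to 0.997), and that of 1421970_a_at from 0.14 to 0.40. For 1435239_at of Gria1 the difference of −0.09 turned to 0.00044 without Rsk2-KO 2 and 0.0025 without WT 3, and was −0.22 without Rsk2-KO 3. With the array number as a replicate block, 0 AMPA subunit probe sets and 1 of all probe sets were called (adjusted p of 1453098_at 0.246); not every array's deviations correlated best with its own number. With array weights the lowest adjusted p of a member was 0.0677. With any 1 array left out, 0 AMPA subunit probe sets and 0 of all were called. The count of AMPA subunit probe sets higher without overlap, 2 on all arrays, was 5 within the arrays numbered 1 and 2 and 2 to 5 with 1 array left out; it was 5 without WT 3 (17.6% of all kept probe sets) and 3 without Rsk2-KO 2 (8.67%) or Rsk2-KO 3 (15.8%), beside 5.9% on all arrays. The cause was not tested. Gria4 was not among the probe sets kept by a filter at the 60th percentile.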
